A study of Mus musculus with 36 samples.

Results

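Swim-up sperm of 2 mice, animals 35669 and 35670, were assayed for DNA methylation of the *Wnt1DR* allele after separation into a motile supernatant and a pellet. These 4 libraries, 1 pellet and 1 supernatant per animal, were chosen by their labels from the 36 libraries of the series. Both animals carried the genotype +/DR, in which the *Wnt1DR* allele stands beside a wild-type chromosome. In *Wnt1DR*, the differentially methylated domain (DMD) of *Rasgrf1* and the tandem repeats next to it were inserted downstream of *Wnt1*, in v6.5 embryonic stem cells, and the mice were bred to C57BL/6. Cauda epididymal sperm were pelleted and covered with fresh medium, and motile sperm then swam up into it. The labels give no age, and the number and purity of the sperm in each fraction are not given in the sources used here. The unfractionated sperm of 2 other animals, 35084 and 35090 with the genotype DR/DR, and the tails of 12 animals with the genotype +/DR are used for reference below.

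*Rasgrf1* is an imprinted mouse gene expressed in neonatal brain from the paternal allele. Its DMD acquires methylation in the male germline, under control of the repeats, and the mark persists on the paternal allele in somatic cells of the offspring. At the native *Rasgrf1* locus sperm molecules are therefore nearly all methylated, whereas the paper reports a much lower level in sperm at *Wnt1DR*. The comparison of sperm fractions thus asks whether molecules with and without the mark are divided differently between motile sperm and the pellet. The question set by the study was whether motile sperm, which are more likely to fertilise, carry *Wnt1DR* copies that differ in methylation from those of the other sperm.

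The assay sequenced 1 bisulfite PCR product. Its 250-base reference matched the NCBIM37 (mm9) genome once, at the native copy of the DMD, chr9:89774437-89774686 on the plus strand, in intergenic sequence that ends 29.9 kb upstream of *Rasgrf1*. The native position is given because no assembly of the inserted copy was used here, although the primers amplify only that copy. The reference is shown because every pattern below is a pattern over its CpGs. The reverse primer does not lie in it, so the amplified product is longer. Positions and ends of the product named below are those of this reference. Capitals mark the 20 CpGs used, numbered 1 to 20 from the 5′ end.
*Wnt1DR* DMD product: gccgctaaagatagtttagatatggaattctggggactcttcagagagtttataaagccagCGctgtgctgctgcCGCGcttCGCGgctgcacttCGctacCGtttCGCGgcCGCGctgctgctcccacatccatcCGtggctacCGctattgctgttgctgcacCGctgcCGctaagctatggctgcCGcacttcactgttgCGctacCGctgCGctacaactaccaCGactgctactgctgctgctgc
CpGs 1 to 11 lie close together, from base 62 to base 115. CpGs 12 to 20 are spread from base 137 to base 229, and the interval of 22 bases between CpGs 11 and 12 is the widest between neighbours. A further CpG at the 5′ end lies in the forward primer and was left out.

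Each of the 4 files listed 38653 reads, the number to which the authors had shortened the data. Reads were used if the alignment software had kept them, if they matched the reference at 98 % identity or more and if at least 95 % of their non-CpG cytosines (CpHs) were converted. This left 26773 and 25561 reads in the pellets of 35669 and 35670, and 15649 and 16246 in their supernatants, so that the supernatants had fewer usable reads in both animals. Of the CpHs of these reads, 0.419 % and 0.484 % were unconverted in the pellets, and 0.427 % and 0.445 % in the supernatants. The reads are PCR copies without molecular identifiers, and the intervals and read-level tests below therefore cover counting error between libraries only, not the number of sperm sampled. No 2 of the 4 libraries agreed within counting error in their read classes (chi-square from 137 to 2255).

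The methylation level was lower in the supernatant than in the pellet of the same animal. The level, the percentage of methylated calls over the 20 CpGs, was 25.0 % in the pellet of 35669 (95 % Wilson interval 24.8 to 25.1) and 20.3 % in its supernatant (20.2 to 20.5). In 35670 it was 31.8 % in the pellet (31.7 to 32.0) and 14.6 % in the supernatant (14.5 to 14.8). Both supernatants lay below both pellets, and the animal with the more methylated pellet had the less methylated supernatant. The supernatant minus pellet difference was -4.61 percentage points in 35669 (95 % Newcombe interval -4.79 to -4.42) and -17.2 points in 35670 (-17.4 to -17.0). The pellets averaged 28.4 ± 4.88 % (SD, n = 2) and the supernatants 17.5 ± 4.03 % (SD, n = 2), with a mean paired difference of -10.9 points. A two-sided exact sign-flip test of 2 pairs gave p = 0.5, the smallest p that 2 pairs allow, so the design cannot pass a threshold of 0.05 however large the difference.

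The lower level was made of more molecules without any methylation and of less methylation on the others. Reads without a methylated CpG made up 51.7 % of the pellet and 56.2 % of the supernatant of 35669, and 44.3 % and 61.2 % in 35670. Among reads with at least 1 methylated CpG, the level was 51.6 % in the pellet and 46.4 % in the supernatant of 35669, and 57.2 % and 37.7 % in 35670. When the level difference was divided between these terms, the larger share of unmethylated reads gave -2.21 of the -4.61 points in 35669 and -8.01 of the -17.2 points in 35670. This is 47.9 % and 46.6 % of the difference, nearly the same in both animals, although the differences themselves were unequal in size. The remaining term includes the reads with exactly 1 methylated CpG. Among reads with 2 or more, the animals were less alike. The level of those reads was 68.4 % in the pellet and 66.4 % in the supernatant of 35669, and 72.0 % and 55.8 % in 35670. Highly methylated reads, those with more than 66 % of their CpGs methylated, fell from 22.8 % of the pellet to 18.3 % of the supernatant in 35669, and from 28.7 % to 10.9 % in 35670. For the unmethylated share, the level of methylated reads and the highly methylated share, both animals moved the same way. The exact sign-flip test again gave p = 0.5 for each.

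**Figure D1:**
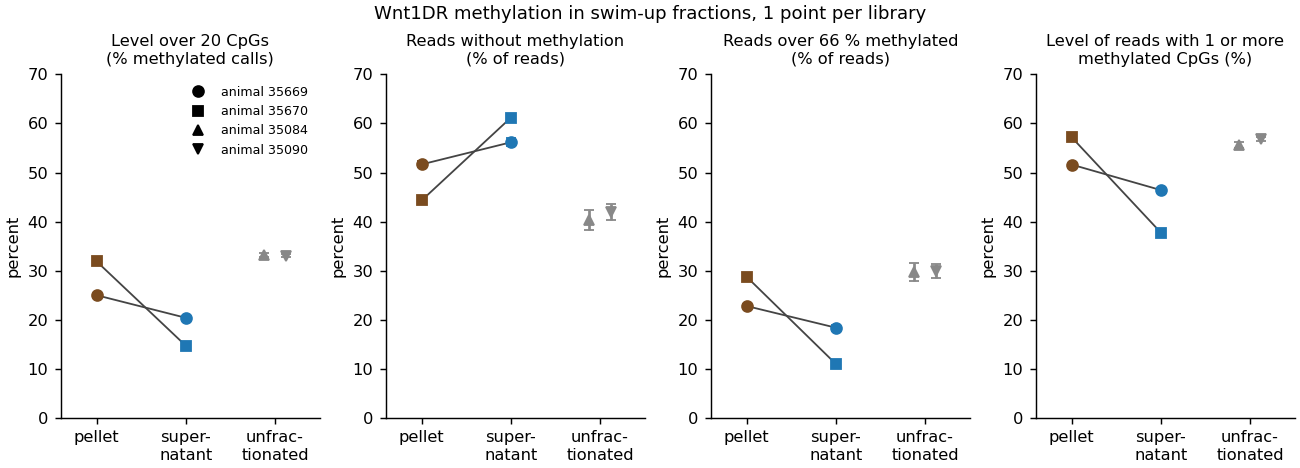
Level over 20 CpGs, reads without methylation, reads over 66 % methylated and level of the reads with 1 or more methylated CpGs, each in percent on an axis from 0. Each point is 1 library with its 95 % Wilson interval, and lines join the pellet and supernatant of 1 animal. Both supernatants have lower levels than both pellets, 20.3 % and 14.6 % against 25.0 % and 31.8 %, and the unfractionated sperm of 2 DR/DR animals lie above all 4 fractions at 33.2 % and 33.0 %.

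The full distribution of methylated CpGs per read was bimodal in all 4 libraries, with most reads at 0 or 1 methylated CpG and a second group at 14 or more. Reads with exactly 1 methylated CpG were more frequent in the supernatant by nearly the same amount in both animals, at 14.3 % against 12.8 % in 35669 and 13.8 % against 12.3 % in 35670. The difference was 1.51 points in each, with intervals of 0.831 to 2.19 and 0.850 to 2.18. The reads with none differed by unequal amounts, 4.51 points in 35669 and 16.9 points in 35670. At the other end, reads with 19 of 20 CpGs methylated made up 5.45 % of the pellet and 1.43 % of the supernatant of 35669, and 8.33 % and 2.13 % in 35670. Reads with 18 methylated CpGs were 4.69 % against 1.74 % and 4.34 % against 2.26 %. The fully methylated read did not behave alike in the 2 animals. It made up 2.89 % of the pellet and 2.74 % of the supernatant in 35669, a difference of -0.150 points whose interval, -0.470 to 0.181, includes 0. In 35670 it made up 8.40 % of the pellet and 1.07 % of the supernatant.

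Of the 21 possible numbers of methylated CpGs, from 0 to 20, 3 were more frequent in the supernatant of both animals (0, 1 and 11), 6 were less frequent in both (4, 7, 9, 18, 19 and 20) and 12 differed in direction. Most of the middle of the distribution therefore had no direction that the 2 animals shared. With 1 to 6 methylated CpGs, reads had shares of 19.1 % and 19.5 % in the pellets, against 18.9 % and 22.0 % in the supernatants. For 7 to 13, the values were 6.53 % and 7.51 % in the pellets, against 6.65 % and 5.88 % in the supernatants. Reads with 14 to 19 were 19.9 % and 20.3 % of the pellets, 15.6 % of the supernatant of 35669 and 9.85 % of that of 35670.

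**Figure D2:**
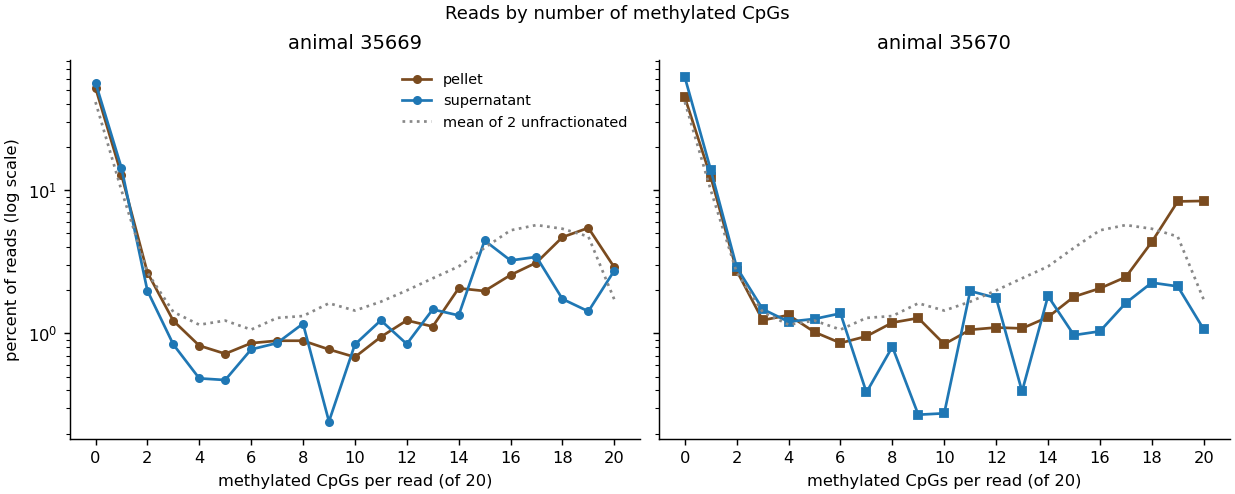
Percentage of reads, on a log scale, by the number of methylated CpGs per read, in the pellet and supernatant of each animal, with the mean of 2 unfractionated sperm libraries as a dotted line. The supernatant lies above the pellet at 0 and 1 methylated CpGs and below it at 18 and 19 in both animals, while the points between cross. The supernatant lines are jagged, as at 9 methylated CpGs, where they drop to 0.243 % and 0.271 %.

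The size of the shift can be set against the spread between animals. To turn the histogram of one library into that of another, 10.5 % of reads would have to change their number of methylated CpGs between the fractions of 35669, and 21.7 % between those of 35670. Between the 2 pellets this was 10.4 %, and between the 2 supernatants 12.1 %. By this measure the difference between fractions in 35669 was about that of the 2 pellets and below that of the 2 supernatants. By the largest gap between cumulative distributions it was below both, at 7.12 points against 8.39 and 8.49. By the mean number of methylated CpGs per read that would have to change, it was again below both, at 0.920 against 1.38 and 1.14. In 35670 the difference between fractions was larger than either by each measure, with 21.7 %, 19.4 points and 3.44 CpGs. The 2 unfractionated libraries, from other animals, differed in 5.15 % of reads.

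All 20 CpGs had a lower level in the supernatant in both animals. Fisher's exact test with Benjamini-Hochberg adjustment over the 20 CpGs called each of them in 35669 (100 % of CpGs tested, largest adjusted p = 8.01e-10) and in 35670 (100 %, largest adjusted p = 4.87e-266). At each of the 20 CpGs, again 100 %, both supernatants lay below both pellets. The 20 CpGs were read on the same molecules, so their calls are not separate from each other or from the level difference above. In 35669 the difference ran from -2.45 points at CpG 14 to -7.55 points at CpG 20, and in 35670 from -15.1 points at CpG 1 to -20.1 points at CpG 13. Averaged over both animals, it was largest at CpG 13 (chromosome 9, 89774582), at -12.7 points, and smallest at CpG 6 (89774532), at -9.35 points. At CpG 13 the levels were 25.8 % and 33.4 % in the pellets and 20.6 % and 13.3 % in the supernatants. At CpG 6 they were 25.9 % and 33.2 % in the pellets and 22.4 % and 17.9 % in the supernatants.

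The shape of the profile along the product was shared by the fractions. CpG 20 (89774665) had the lowest level in all 4 libraries, with 19.6 % and 26.8 % in the pellets and 12.1 % and 10.0 % in the supernatants. CpG 8 (89774543) had the highest in 3 of them, with 25.1 % and 18.9 % in the supernatants and 35.1 % in the pellet of 35670. In the pellet of 35669 CpG 10 (89774549) was highest, at 28.2 %, with CpG 8 at 28.0 %. Over the dense CpGs 1 to 11, the level of the supernatant was 0.839 times that of the pellet in 35669 and 0.495 times in 35670. Over the sparse CpGs 12 to 20, it was 0.783 and 0.415 times. The fall towards the 3′ end was also present within molecules. In highly methylated reads, CpG 20 was methylated in 67.7 % and 73.9 % of reads of the pellets and in 55.1 % and 54.9 % of reads of the supernatants.

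**Figure D3:**
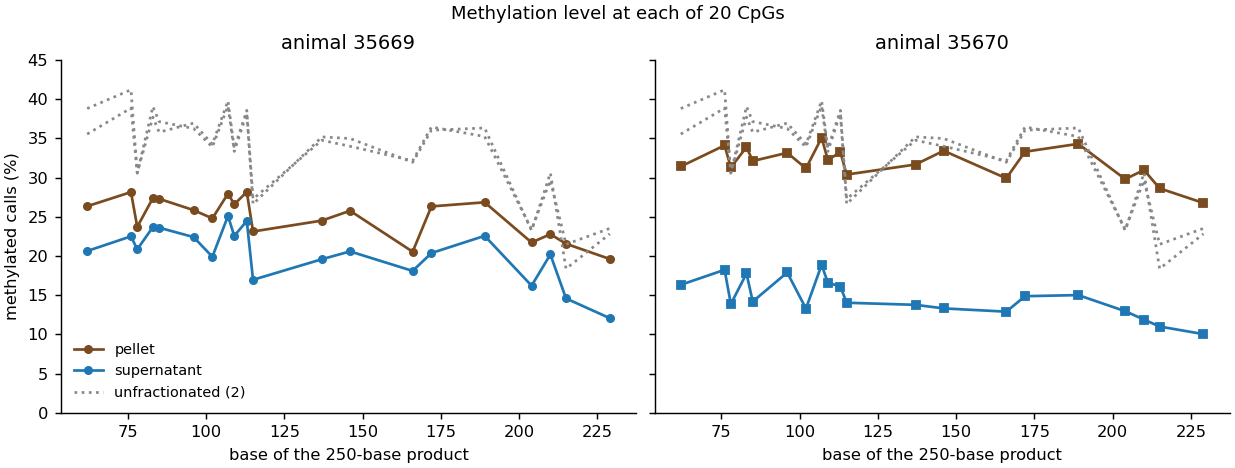
Methylated calls in percent at each of the 20 CpGs, against the position of the CpG in the 250-base reference, for the pellet and supernatant of each animal and, dotted, the 2 unfractionated sperm libraries. Each supernatant point lies below its pellet point, with differences of -2.45 to -7.55 points in 35669 and of -15.1 to -20.1 points in 35670. The pellet and supernatant lines keep a similar shape with their lowest point at the last CpG, while the dotted lines are lowest at CpG 19, at 18.4 % and 21.5 %.

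Each read called at all 20 CpGs has a pattern, written below with a filled circle for a methylated and an open circle for an unmethylated CpG, from CpG 1 to CpG 20. Patterns with at least 10 reads in the 2 fractions of an animal together were compared by Fisher's exact test, with Benjamini-Hochberg adjustment over all patterns tested in that animal. In 35669, 286 patterns were tested, of which 56 were called higher in the supernatant (19.6 %) and 183 higher in the pellet (64.0 %). In 35670, 256 were tested, of which 53 were called higher in the supernatant (20.7 %) and 167 higher in the pellet (65.2 %). These counts cannot be read as the makeup of the fractions. The limit of 10 reads was set on the sum of both fractions, and most called patterns passed it through 1 fraction alone: 142 of the 183 and 117 of the 167 called for the pellet had 0 reads in the supernatant, and 31 of the 56 and 29 of the 53 called for the supernatant had 0 in the pellet. The pellets also had more reads with a full pattern, 26496 and 25350 against 15504 and 16105, so more of their rare patterns passed.

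Only 92 patterns were frequent enough to be tested in both animals. Of these, 41 were higher in the pellet in both, 5 were higher in the supernatant in both, 10 were called in opposite directions, 25 were called in 1 animal and 11 in neither. Since 64.0 % and 65.2 % of the patterns tested in each animal were called for the pellet, and 19.6 % and 20.7 % for the supernatant, the excess of pellet patterns among those called in both is not a result of its own. The 41 patterns held 11 of the 15 tested that lacked methylation at 1 CpG alone, and 18 of 23 others with 14 to 18 methylated CpGs. They also held 3 of 7 methylated in 1 unbroken stretch from the 5′ end and 6 of 9 from the 3′ end. Of the others, 1 of 12 had 2 to 6 methylated CpGs and 2 of 4 had 7 to 13. The 5 patterns higher in both supernatants were the unmethylated read, 2 reads with 1 methylated CpG, 1 with 2 and 1 with CpGs 1 to 11 methylated. None of the 20 patterns with 1 methylated CpG was higher in both pellets, against 41 of all 92. None of the 15 tested patterns with 1 unmethylated CpG was higher in both supernatants. Only 5 of all 92 were, so this is not a trait of these 15.

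The 6 patterns most enriched in the pellets, by the smaller ratio of the 2 animals with supernatant counts under 3 set to 3, are shown because they had 5 or fewer reads in each supernatant and many more in each pellet. The order depends on that floor. With counts of 1 and 2 taken as they are, the patterns with a gap at CpG 6 only (52 reads against 1 and 123 against 0) or at CpG 11 only (54 against 1 and 83 against 0) would rank above some of those shown.
Unmethylated at CpG 14 only: ●●●●●●●●●●●●●○●●●●●●
Unmethylated at CpG 17 only: ●●●●●●●●●●●●●●●●○●●●
Unmethylated at CpGs 19 and 20: ●●●●●●●●●●●●●●●●●●○○
Unmethylated at CpG 18 only: ●●●●●●●●●●●●●●●●●○●●
Unmethylated at CpG 12 only: ●●●●●●●●●●●○●●●●●●●●
Unmethylated at CpG 3 only: ●●○●●●●●●●●●●●●●●●●●
The first, with a gap at CpG 14 (89774602), had 404 reads in the pellet of 35669 and 1 in its supernatant, and 285 and 1 reads in 35670. With counts of 1 taken as they are, the ratio of its shares was 236 in 35669 (95 % exact interval 42.2 to 9360) and 181 in 35670 (32.2 to 7176). It was the fourth most frequent pattern of the pellet of 35669 and the fifth of that of 35670. The patterns shown were picked from these same reads, so the ratios and intervals given for them only describe them. The pattern with a gap at CpG 17 had 114 reads against 2 in 35669, a ratio of 33.4 (9.02 to 279), and 130 against 0 in 35670, at least 27.5-fold higher in the pellet when the 0 reads of a library are set to a floor of 3. The pattern with a gap at CpG 18 had 119 against 0, at least 23.2-fold higher, and 61 against 3, a ratio of 12.9 (4.22 to 64.4). The pattern with a gap at CpG 12 had 61 against 3, a ratio of 11.9 (3.88 to 59.3), and 115 against 4. All 6 were heavily methylated, and all but 1 lacked a single CpG.

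As a family, the patterns with 1 unmethylated CpG made up 5.49 % of the pellet and 1.43 % of the supernatant reads of 35669, and 8.37 % and 2.15 % in 35670. The ratio of supernatant to pellet was 0.260 and 0.257, nearly the same in both animals. In the pellets all 20 such patterns occurred, led by the gap at CpG 14 with 27.8 % of the family in 35669 and by the gap at CpG 20 with 15.7 % in 35670. In the supernatants 12 and 13 of the 20 occurred, and a single pattern held most of the family. In 35669 this was the gap at CpG 15, with 141 of 221 reads, and in 35670 the gap at CpG 7, with 181 of 346 reads. Of the 15 patterns of this family tested in both animals, 3 were called in opposite directions, these 2 and the gap at CpG 13. The gap at CpG 15 had 141 supernatant reads against 83 pellet reads in 35669 and 1 against 58 in 35670. The gap at CpG 7 had 0 against 31 in 35669 and 181 against 97 in 35670. The gap at CpG 13 had 0 against 71 in 35669 and 135 against 85 in 35670.

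The patterns higher in both supernatants were picked from these same reads too, so their ratios and intervals only describe them. In the order of the smaller ratio, they were the following.
Methylated at CpGs 4 and 8: ○○○●○○○●○○○○○○○○○○○○
Methylated at CpGs 1 to 11: ●●●●●●●●●●●○○○○○○○○○
Methylated at CpG 2 only: ○●○○○○○○○○○○○○○○○○○○
Methylated at CpG 6 only: ○○○○○●○○○○○○○○○○○○○○
Unmethylated: ○○○○○○○○○○○○○○○○○○○○
The first had 39 reads in the supernatant and 14 in the pellet of 35669, and 45 and 4 in 35670, or 4.76 (2.53 to 9.49) and 17.7 (6.46 to 67.8) times the share. The pattern with the dense CpGs methylated and the sparse CpGs not had 63 supernatant and 57 pellet reads in 35669 and 77 and 49 in 35670, with ratios of 1.89 (1.30 to 2.75) and 2.47 (1.71 to 3.61). CpG 2 alone gave a ratio of 1.52 in each animal, with 210 against 236 reads and 192 against 199. CpG 6 alone gave 1.28 (1.01 to 1.63) and 1.83 (1.48 to 2.27). Other patterns of the pellets had ratios of this size too, such as the gap at CpG 19 only, with 80 pellet against 20 supernatant reads in 35669, a ratio of 2.34.

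When the test was limited to reads with at least 1 methylated CpG, the share of unmethylated reads no longer entered. In 35669, 56 of 285 patterns were called higher in the supernatant (19.6 %) and 177 higher in the pellet (62.1 %). In 35670, 62 of 255 were called higher in the supernatant (24.3 %) and 147 higher in the pellet (57.6 %). The same limit holds here, since 142 of the 177 and 117 of the 147 called for the pellet had 0 supernatant reads. Of 91 patterns tested in both, 33 were higher in both pellets, 6 in both supernatants and 12 in opposite directions. The 6 were the pattern with CpGs 4 and 8, the pattern with CpGs 1 to 11, and the patterns methylated at CpG 2, 3, 6 or 17 alone. CpG 3 alone had 178 supernatant against 231 pellet reads in 35669 and 127 against 190 in 35670. CpG 17 alone had 98 against 106 and 89 against 121. With the same floor of 3, the 6 patterns of largest ratio in the pellets were 5 of those shown above and the pattern with a gap at CpG 11 only.

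**Figure D4:**
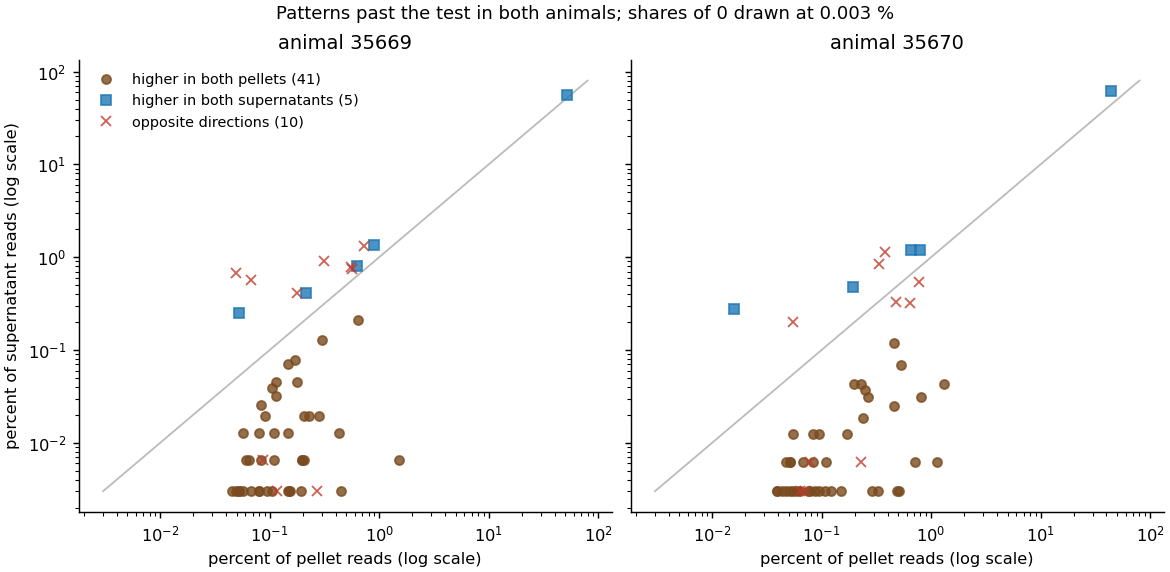
Share of pellet reads (x axis) and of supernatant reads (y axis), both in percent on log scales, of each pattern called in both animals, 1 panel per animal, with shares of 0 drawn at 0.003 % and the line of equal shares in grey. The 41 patterns higher in both pellets lie below the line, from about as near to it as the supernatant patterns down to 0 in the supernatant, the 5 higher in both supernatants lie above it, and the 10 patterns called in opposite directions cross it between panels.

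Reads with a single switch between methylated and unmethylated CpGs were a minor class in all 4 libraries, and the position of the switch differed between fractions. Reads methylated over a 5′ stretch of 2 to 18 CpGs made up 1.08 % of each pellet, and 0.690 % and 0.844 % of the supernatants. In the supernatants the switch lay between CpGs 11 and 12, the widest interval between neighbours, in 63 of 107 reads (58.9 %) of 35669 and in 77 of 136 (56.6 %) of 35670. In the pellets it lay there in 19.9 % and 17.9 % of such reads, behind the switch between CpGs 18 and 19, with 25.8 % and 26.7 %. The 63 and 77 reads are those of the pattern methylated at CpGs 1 to 11, already listed as higher in both supernatants, so their switch position is no separate result. In the supernatant of 35670, 42 of 136 reads (30.9 %) switched between CpGs 6 and 7, against 1 read in its pellet and 1 in the other supernatant. Reads methylated over a 3′ stretch had shares of 0.906 % and 2.07 % in the pellets, against 0.406 % and 0.335 % in the supernatants, and in all 4 libraries the switches between CpGs 11 and 12 and between CpGs 16 and 17 were the 2 most frequent. The read with the 9 sparse CpGs methylated and the dense CpGs not had 39 pellet and 11 supernatant reads in 35669 and 135 and 11 in 35670, the reverse of its mirror image.

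The supernatants held far fewer distinct partly methylated patterns, each with more reads. Among reads with 4 to 16 methylated CpGs, 4119 and 4033 pellet reads fell into 1531 and 1469 patterns, and 2709 and 2191 supernatant reads into 581 and 522. At an equal depth of 2191 reads, 987 and 965 patterns would be expected from the pellets and 496 and 522 from the supernatants. The effective number of patterns, the inverse of the chance that 2 reads drawn from the library have the same pattern, was 432 and 240 in the pellets and 52.5 and 47.3 in the supernatants. The 10 most frequent patterns held 9.23 % and 14.9 % of these reads in the pellets and 34.9 % and 38.8 % in the supernatants. The groups did not overlap in the values at equal depth, in the effective number or in the share of the 10 patterns. When all reads with 2 or more methylated CpGs were counted, the values at equal depth again did not overlap. At 4042 reads they were 1250 and 1108 patterns in the pellets and 756 and 786 in the supernatants. The effective numbers did overlap there, with 94.2 and 23.9 in the pellets and 52.5 and 64.7 in the supernatants. So did the share of reads in 10 patterns, with 20.8 % and 34.3 % against 30.5 % and 31.1 %. In the pellet of 35670, 2146 of those 11043 reads were fully methylated.

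Many of these partly methylated patterns were seen in 1 sperm library only. The 3 most frequent in the supernatant of 35669 had 126, 110 and 108 reads, and none of the 3 had a read in its own pellet, in either fraction of 35670 or in the unfractionated sperm. The most frequent in the supernatant of 35670 had 111 reads and none elsewhere, but the next 2 were shared: 110 reads with 11 in its own pellet, and 102 reads with 19 in its own pellet, 4 in the other and 1 in each unfractionated library. Of the 34 such patterns with 10 or more reads in the supernatant of 35669, 8 were seen in the pellet of the same animal and 5 in the pellet of the other animal. Of the 28 in the supernatant of 35670, 6 were seen in its own pellet and 5 in the other. Of the 97 and 80 in the pellets, 20 and 19 were seen in the supernatant of the same animal, and 27 and 30 in the pellet of the other animal. Seen in at least 1 of the other 5 sperm libraries were 10 of the 34 and 9 of the 28 supernatant patterns, and 34 of the 97 and 38 of the 80 pellet patterns. Neither fraction thus had most of its frequent partly methylated patterns in common with the other fraction of the same animal. Counted over all called patterns, those seen in 1 fraction only occurred on both sides. The 31 and 29 without a pellet read held 12.3 % and 8.79 % of the supernatant reads, and the 142 and 117 without a supernatant read held 10.2 % and 8.66 % of the pellet reads. The number of sperm genomes that entered each PCR is not given in the sources used here, and its part in the private patterns and in the called patterns was not tested.

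**Figure D5:**
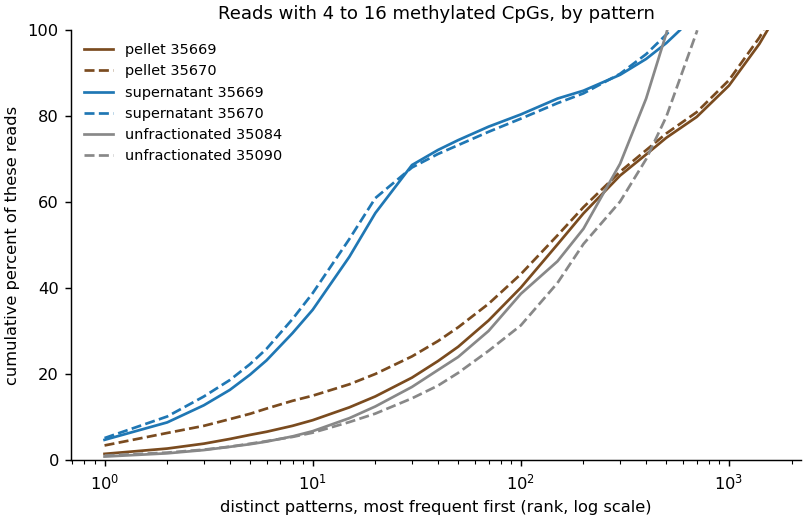
Cumulative percentage of the reads with 4 to 16 methylated CpGs against the number of distinct patterns, most frequent first, on a log scale, for the 4 fractions and the 2 unfractionated sperm libraries. The supernatant curves rise first, with 34.9 % and 38.8 % of reads in 10 patterns, and the pellet curves, with 9.23 % and 14.9 %, lie nearer to those of unfractionated sperm, with 6.67 % and 6.32 %.

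The fractions also differed in the share of a second kind of read. Besides the reads used, which start at the forward primer, the files list excluded reads that have 135 gaps and 9 CpGs. They were taken here to be reads from the opposite end that cover the last 115 bases of the reference and CpGs 12 to 20. The files do not state this, and the values below depend on it. The files give the number of methylated CpGs of such reads but not the calls. Such reads made up 26.3 % and 29.6 % of the reads listed for the pellets and 54.5 % and 48.3 % of those for the supernatants. Their level was 38.2 % and 47.9 % in the pellets and 21.6 % and 17.7 % in the supernatants, a larger gap than the reads used showed at the same 9 CpGs, with 23.3 % and 31.0 % against 18.3 % and 12.9 %. The difference was -16.5 and -30.3 points from the opposite end and -5.05 and -18.1 points from the forward primer. In all 4 libraries the more methylated molecules were read more often from the opposite end. Among molecules with none of the 9 CpGs methylated, 22.2 % and 24.1 % of pellet reads and 56.1 % and 51.3 % of supernatant reads came from the opposite end. Among molecules with 7 to 9 methylated, these were 40.7 % and 42.8 % of pellet and 62.4 % and 63.8 % of supernatant reads. With both ends counted together, the level over these CpGs was 27.4 % and 36.3 % in the pellets and 20.2 % and 15.5 % in the supernatants. The supernatant was lower in both animals whichever end was counted, while the size of the difference depended on the end. The part of read orientation in the results at 20 CpGs was not tested.

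In the reads used, over all CpGs together, both fractions had a lower level than the unfractionated sperm of the 2 DR/DR animals. Animals 35084 and 35090 had levels of 33.2 % and 33.0 %, with 40.3 % and 41.9 % of reads unmethylated and 29.6 % and 29.9 % highly methylated. All 4 fractions had more unmethylated reads than these, and the pellet of 35670 came closest, with 31.8 %, 44.3 % and 28.7 %. The fully methylated read, with 1.81 % and 1.64 % in unfractionated sperm, was more frequent in both pellets and in the supernatant of 35669. The pattern with a gap at CpG 14 had 2 of 2373 and 6 of 3781 reads, or 0.0843 % and 0.159 %, against 1.52 % and 1.12 % in the pellets. At an equal depth of 660 reads with 4 to 16 methylated CpGs, 505 and 508 patterns were expected in unfractionated sperm, 427 and 413 in the pellets and 203 and 211 in the supernatants. The genotype, the animals and the sequencing depth differ between these libraries and the fractions, so no test was made. Only 2432 and 3841 of the 38653 reads listed could be used from them.

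The tails of 12 +/DR animals give the somatic state of the paternally inherited allele. Their level was 78.8 % at the lowest, 93.7 % at the median and 95.7 % at the highest, above every sperm fraction. Fully methylated reads were 12.4 % to 51.6 % of tail reads, and patterns with 1 unmethylated CpG were present in all 12. The gap at CpG 14 made up 0.567 % to 5.98 % of tail reads, with a median of 1.54 %, beside 1.52 % and 1.12 % in the pellets and 0.00645 % and 0.00621 % in the supernatants. The pattern methylated at CpGs 4 and 8 had no read in any tail library, and the pattern with CpGs 1 to 11 methylated reached at most 0.0987 %. The other single gaps listed for the pellets had higher median shares in the tails, with 3.66 % for CpG 12 beside 0.230 % and 0.454 % in the pellets, 1.80 % for CpG 17 beside 0.430 % and 0.513 %, and 1.60 % for CpG 18 beside 0.449 % and 0.241 %. The unmethylated read, which was higher in both supernatants, made up as much as 6.16 % of the reads of a tail. Whether DNA of other cells was present in the pellets cannot be read from 1 PCR product, and its part was not tested.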

How the data were processed

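Bisulfite-converted DNA was amplified with primers for the *Wnt1DR* DMD, and libraries were sequenced on a MiSeq. The authors filtered the reads, shortened these data and aligned each read with QUMA, whose version is not given in the sources used here. The deposited files give per read a count of mismatches, gaps, methylated CpGs and CpHs left unconverted, and the percent identity, percent of methylated CpGs and percent of converted CpHs computed by the authors' software, with a string of calls for reads not excluded. Per the file headers, reads with more than 5 unconverted CpHs, more than 10 mismatches or under 90 % identity were excluded. The reference sequence is a deposited file too.

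Here 98 % identity and 95 % conversion were required, and the first of 21 listed calls was dropped because it lies in the primer. In the pellet of 35669, 104 call strings had been lost in a spreadsheet, and these reads were left out. The 2 fractions of an animal come from the same sperm and were paired by the animal number in the labels, although their deviations from the group means ran in opposite directions (r = -0.924 over the CpGs). Differences were tested by exact sign-flip tests over animals, CpGs and patterns by Fisher's exact tests within each animal with Benjamini-Hochberg adjustment, at a threshold of 0.05. These tests compare 2 libraries. A read from the opposite end, an origin the files do not state, was taken as an excluded read with 135 gaps, the most frequent number among excluded reads of these libraries, at most 5 mismatches, 95 % conversion and 9 CpGs. The CpGs named have the largest and smallest mean difference or the highest and lowest level, and the patterns named have the largest of the smaller ratios of both animals (counts under 3 set to 3), up to 6 per direction, or are among the 5 most frequent of a library. Other patterns were named after their values were seen. The members, lists and tests were chosen with earlier results of these data known. The code was tested on simulated data. Tests were run in SciPy 1.17.1 with NumPy 2.4.6 under Python 3.11.15, and plots were drawn with Matplotlib 3.10.9.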

Additional observations from a re-analysis of the deposited data

How the results depend on the processing

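Each difference of the level, the unmethylated reads, the highly methylated reads and the level of methylated reads kept its direction in both animals under every alternative run, and no exact test could pass 0.05. Counting each distinct pattern once could not test the direction for unmethylated reads. The level difference of -10.9 points ranged from -6.54 points, with each distinct pattern counted once, to -23.4 points from the opposite end. The unmethylated share, 10.7 points higher, was 15.1 points higher with every read listed and 23.4 points from the opposite end. With each pattern counted once it was 0.0734 points higher. There the unmethylated read is 1 pattern in each library, so the sign follows from the number of distinct patterns alone. The highly methylated share ranged from -7.70 points, with each pattern once, to -24.9 points from the opposite end. The level of methylated reads ranged from -6.51 points, with each pattern once, to -16.9 points from the opposite end. For reads with 2 or more methylated CpGs it was -9.05 points, from -1.93 points in 35669 and -16.2 points in 35670. Counts from the opposite end, from both ends, at the last 9 CpGs of the reads used, with lost call strings, for reads with 2 or more methylated CpGs and with crossed pairs were chosen after seeing the data. With 1 animal left out, the differences were -17.2 and -4.61 points for the level, 16.9 and 4.51 for unmethylated reads, -17.8 and -4.42 for highly methylated reads and -19.4 and -5.20 for the level of methylated reads.

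Of the 20 CpGs called lower in both animals, 5 were called when each distinct pattern was counted once (CpGs 2, 4, 7, 13 and 20), which leaves far fewer items to test than reads. The patterns enriched in 1 fraction in both animals numbered 46, but 30 with identity of 100 % only and 28 with at least 20 reads per pattern. A single animal gives 220 or 239 calls, and 209 or 233 among methylated reads, in place of 46 and 39. With identity of 100 %, CpG 6 alone was no longer called in both animals. Without the replicate block, that is unpaired, the mean differences stay -10.9, 10.7, -11.1 and -12.3 points with an exact permutation p of 0.333, the smallest that 2 against 2 allow, and 20 CpGs have both supernatants below both pellets. The deviations of same-numbered libraries from their group means had an r of -0.924 over the CpGs, since 35669 had the lower pellet and the higher supernatant. With crossed pairs 20 CpGs, 45 patterns and 41 patterns of methylated reads were called. The primer CpG (21 CpGs) was not among those called, and leaving out the first and last CpG left 18 of 18. The count of usable reads limits the rarest patterns, and 2 animals limit every difference.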
